A study of Mus musculus with 18 samples.

Results

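The muscle miRNAs miR-1, miR-133, miR-206 and miR-499 were followed through small RNA libraries of mouse sperm. The members were taken by name: every listed id of mmu-miR-1a, miR-1b, miR-133a, miR-133b, miR-206 and miR-499, with any arm or copy suffix. Among them are mmu-miR-1a-3p, mmu-miR-133a-3p, mmu-miR-133b-3p, mmu-miR-206-3p and mmu-miR-499-5p, written below without the species prefix. This gave 13 ids of 6 names among the 1739 known miRNA ids of the table. All samples were sperm of ICR mice, an outbred strain, in 6 groups of 3 libraries. Males of the F0 NHS group were given ammonia (NH3) and hydrogen sulfide (H2S) for 5 weeks, starting at 3 weeks of age, and were bred to untreated ICR females. Males of the F1 NHS group were their untreated sons, and males of the F2 NHS group were the untreated next generation. The F0 Con, F1 Con and F2 Con groups were the controls of each generation. The breeding age of 8 weeks is given for F1 males without distinction of group, and nothing more is said of how the controls were kept. The labels give no gas dose and no age at collection for the F2 males, and they do not say whether replicates came from separate animals, so p-values measure only the spread between libraries, which may be technical.

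Library totals ran from 18072900 to 29430555 reads in the 16 libraries used. The lists of F1 NHS replicates 1 and 3 stop before the known miRNAs, so replicate 2 alone stood for the F1 NHS group. Known miRNAs took 13.3% to 57.4% of a library, with group means of 49.9% in F0 Con, 21.1% in F1 Con and 27.4% in F2 Con. Values below are TPM, here reads per 1000000 reads of the library with no length term. The floor used for an id at 0, 3 reads, corresponds to 0.102 to 0.166 TPM. A floor covers the error of counting alone, because PCR copies are not told apart from molecules.

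miR-1 and miR-133 are transcribed together from shared loci in heart and skeletal muscle, under the muscle transcription factors SRF, MEF2 and MyoD. miR-1 and its relative miR-206, which is largely restricted to skeletal muscle, favour the differentiation of muscle cells, while miR-133 favours the proliferation of their precursors. miR-499 lies in a myosin gene and belongs to the slow-fibre program. They are best known from striated muscle.

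The mature sequences below, from RefSeq (GRCm38.p6), are shown because they tell the arms and families apart that the read counts separate. RefSeq sequences matched 7 of the 13 ids. Capitals mark the seed, bases 2 to 8, and all run 5′ to 3′.
miR-206-3p: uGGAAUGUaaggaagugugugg
miR-133b-3p: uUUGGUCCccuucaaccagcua
miR-499-5p: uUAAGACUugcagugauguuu
miR-499-3p: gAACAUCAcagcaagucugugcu
miR-206-5p: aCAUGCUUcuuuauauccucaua
miR-1a-1-5p: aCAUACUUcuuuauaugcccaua
The 4 arms of miR-206-3p, miR-133b-3p, miR-499-5p and miR-499-3p carry 4 different seeds. Among the RefSeq sequences used, the miR-206-3p seed also occurs in miR-6349 and miR-6382. No sequence was matched for miR-1a-3p and miR-133a-3p, so seeds shared with these members could not be looked for. The passenger arms miR-206-5p and miR-1a-1-5p are identical at 20 of 23 bases.

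Mir206 lies on the plus strand of chromosome 1 at 20679010 to 20679082 and Mir133b at 20682769 to 20682887, with 3686 bases between them. Both lie within an exon of Gm28653, a lincRNA of the same strand. The hairpins are shown so that the position of each counted arm, in capitals, can be seen.
Mir206: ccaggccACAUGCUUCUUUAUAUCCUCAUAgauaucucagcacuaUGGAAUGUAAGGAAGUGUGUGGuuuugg
Mir133b: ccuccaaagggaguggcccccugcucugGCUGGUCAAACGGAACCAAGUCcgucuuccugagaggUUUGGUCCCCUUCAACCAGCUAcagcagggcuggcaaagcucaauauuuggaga
Mir499: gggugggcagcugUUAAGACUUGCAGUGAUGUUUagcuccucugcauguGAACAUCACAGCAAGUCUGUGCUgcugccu
Mir499 lies on chromosome 2 at 155622880 to 155622958, in an intron of Myh7b, a myosin heavy chain gene. Mir1a-1 and Mir133a-2 lie on the same chromosome at 180389048 to 180389124 and 180398379 to 180398482, with 9254 bases between them and no annotated host gene. Mir1b is known to overlap Mir1a-2 on the opposite strand, a locus that was not looked up here. The counting is not stated to use strand, so reads of miR-1a and miR-1b may not be told apart and their split is uncertain. miR-133a-3p and miR-133b-3p differ little in sequence, so their split is uncertain too.

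Of the 13 ids, 8 passed the filter on low values (at least 1 TPM in at least 3 libraries), and each of these had reads in all 16 libraries. The other 5 were the passenger arms miR-133a-5p, miR-133b-5p, miR-1a-1-5p, miR-1a-2-5p and miR-206-5p. miR-133a-5p reached at most 0.694 TPM, miR-1a-2-5p at most 0.269 and miR-1a-1-5p at most 0.189. miR-133b-5p and miR-206-5p had reads in 1 library each. By mean TPM over the 16 libraries, miR-133a-3p was the highest member, at place 135 of the 1739 known miRNAs. It was followed by miR-1a-3p, miR-1b-3p at place 215, miR-1b-5p at 259, miR-206-3p at 279, miR-499-3p at 309, miR-499-5p at 338 and miR-133b-3p at 407. These places rest on mean TPM, which has no length term. All members together made up a mean of 0.282% ± 0.126 of the miRNA reads in F0 Con and 0.0890% ± 0.0110 in F2 Con (SD, n = 3 each).

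**Figure D1:**
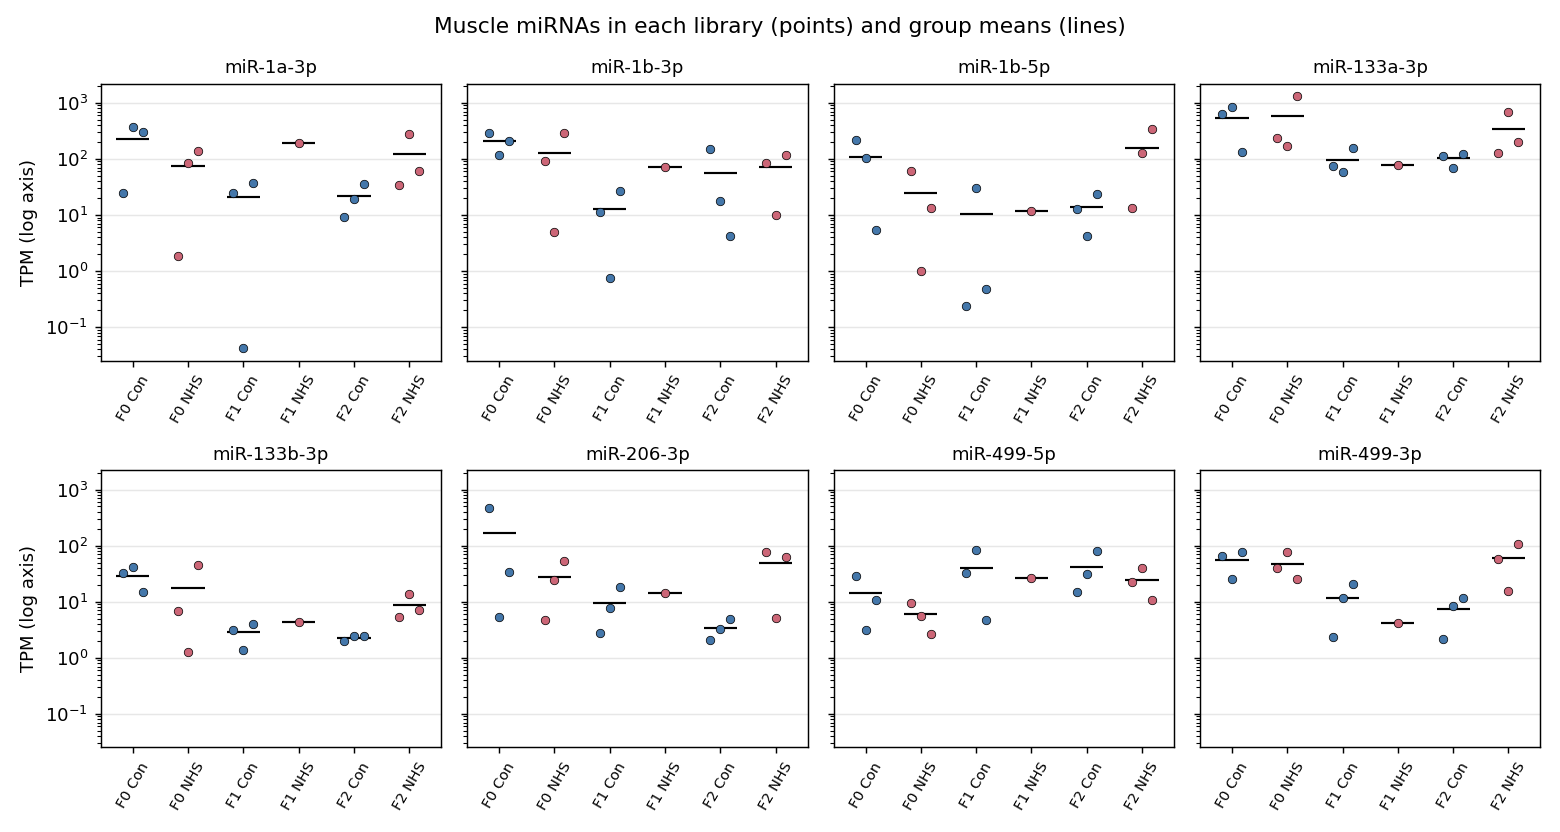
TPM of the 8 members that passed the filter (vertical log axis) in each library by group (horizontal axis); blue points are Con, red points are NHS libraries and lines are group means. For miR-133b-3p the F0 Con libraries sit between 14.997 and 40.9 TPM and the F2 Con libraries between 1.97 and 2.49.

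The libraries of one group often disagreed on a single id of miR-1, the family best known for muscle differentiation. In F0 Con, miR-1a-3p stood at 24.8, 364 and 302 TPM in replicates 1, 2 and 3. miR-1b-3p stood at 291, 117 and 212 TPM and miR-1b-5p at 221.5, 104 and 5.39 TPM in the same libraries. The library low in miR-1a-3p was thus the highest in both arms of miR-1b. In F1 Con, miR-1a-3p stood at 24.9, 0.0425 and 36.7 TPM, and the value of replicate 2 was 1 read. That library was the one rich in miR-1b-5p, with 30.6 TPM against 0.235 and 0.471 TPM in the others. F2 Con held 9.16, 19.6 and 35.9 TPM of miR-1a-3p and 148, 17.6 and 4.21 TPM of miR-1b-3p. miR-1b-5p there stood at 12.8, 4.15 and 24.1 TPM. The order of the 3 F2 Con libraries in miR-1a-3p was the reverse of that in miR-1b-3p.

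The NHS libraries were as uneven. F0 NHS held 1.87, 83.0 and 141 TPM of miR-1a-3p in replicates 1, 2 and 3. Its miR-1b-3p stood at 93.0, 5.06 and 290 TPM. F2 NHS held 33.8, 274 and 60.5 TPM of miR-1a-3p, 83.9, 10.02 and 120 TPM of miR-1b-3p, and 13.3, 127 and 337 TPM of miR-1b-5p. The F1 NHS library held 189, 72.8 and 11.7 TPM of the 3 ids. Each id was the most counted of the 3 in some libraries. The share of miR-1a-3p in the reads of miR-1a and miR-1b together ran from 0.135% to 93.1% over the libraries, that of miR-1b-3p from 2.43% to 87.1% and that of miR-1b-5p from 0.644% to 97.2%.

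Summed over all ids of miR-1a and miR-1b, a sum chosen after the values were seen, the F0 Con libraries held 538, 586 and 520 TPM (548 ± 34.4, SD, n = 3). The coefficient of variation of the sum was 6.27%, against 78.5% for miR-1a-3p, 42.2% for miR-1b-3p and 98.0% for miR-1b-5p alone in those libraries. This did not hold in every group: in F2 Con the sum varied by 74.8%, against 62.4% for miR-1a-3p, 140% for miR-1b-3p and 73.2% for miR-1b-5p. The F1 Con libraries held 36.4, 31.5 and 64.3 TPM of the sum (44.1 ± 17.7) and the F2 Con libraries 170, 41.4 and 64.2 TPM (92.0 ± 68.9). Every F0 Con library was thus above every F1 Con and F2 Con library. Among all miRNAs taken singly, 25.6% were lower without overlap in F1 Con and 21.1% in F2 Con. F0 NHS held 154.8, 89.2 and 444 TPM (229 ± 189), the F1 NHS library 274 TPM and F2 NHS 131, 411 and 518 TPM (353 ± 200). All F0 NHS libraries lay below all F0 Con libraries, and F2 NHS overlapped F2 Con. Of all miRNAs taken singly, 4.76% were lower in F0 NHS without overlap. Tested with edgeR as below, the sum had a log2 fold change of -1.52 in F0 (SE 0.60, edgeR adjusted p = 0.452). In F2 it was 1.71 (SE 0.60, edgeR adjusted p = 0.171). Neither was called.

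**Figure D2:**
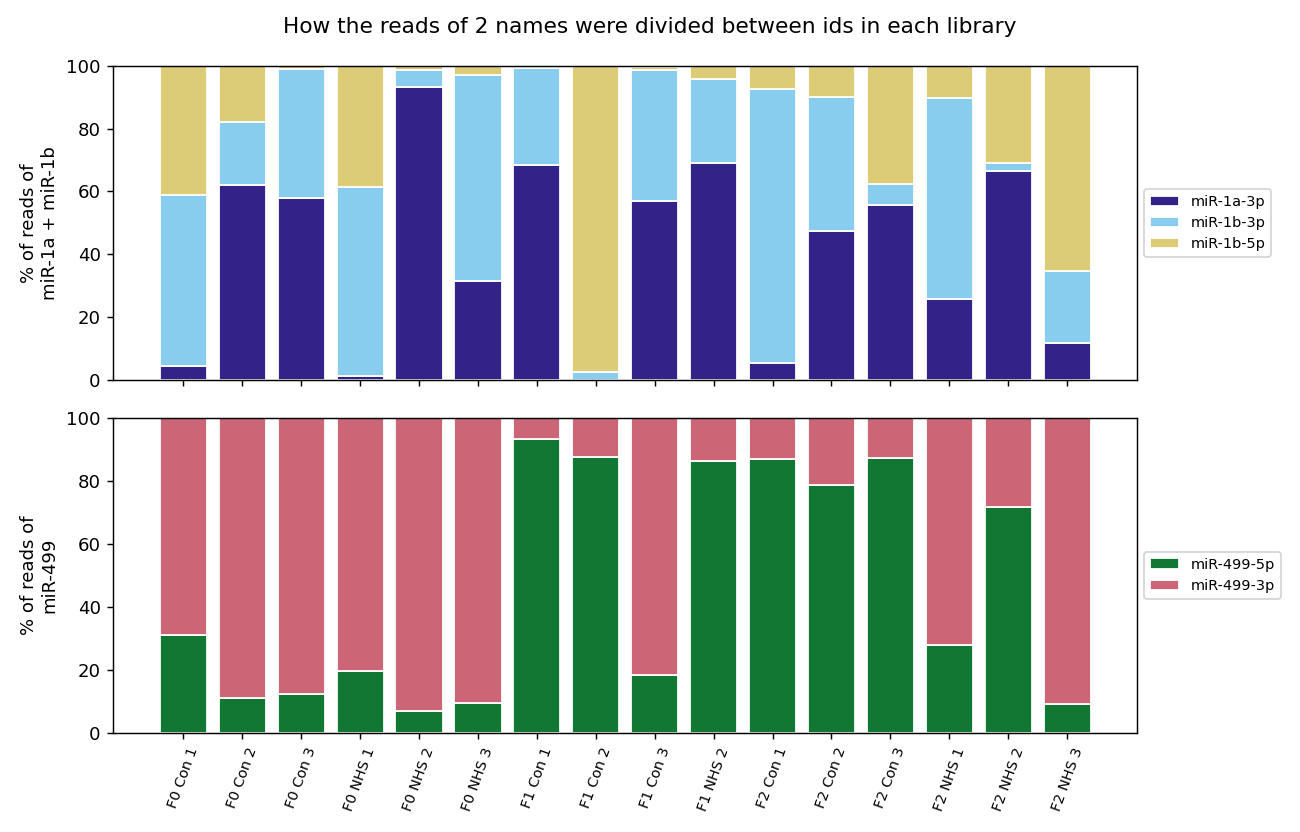
Share of the reads of miR-1a and miR-1b (top) and of miR-499 (bottom) that each id took, in percent of the name's reads (vertical axis), in each of the 16 libraries (horizontal axis). The share of miR-1a-3p runs from 0.135% to 93.1%, and that of miR-499-5p from 6.92% to 93.3%.

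miR-133a-3p, which restrains SRF in muscle, stood at 637, 837 and 131 TPM in F0 Con and at 240, 167 and 1312 TPM in F0 NHS. F1 Con held 75.3, 59.3 and 156 TPM, the F1 NHS library 77.3 TPM and F2 Con 113, 68.8 and 124 TPM. F2 NHS held 128, 690 and 204 TPM. The F0 groups overlapped, with the lowest of the 6 libraries in F0 Con and the highest in F0 NHS, while all 3 F2 NHS libraries were above the highest F2 Con library. Such a gap in F2 was seen for 11.7% of all miRNAs. The 3p arm took at least 99.5% of the reads of miR-133a, at least 99.7% of those of miR-133b and at least 99.99% of those of miR-206 in every library.

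miR-133b-3p, encoded beside miR-206 on chromosome 1, stood at 32.0, 40.9 and 14.997 TPM in F0 Con and at 6.70, 1.29 and 45.0 TPM in F0 NHS. F1 Con held 3.09, 1.36 and 4.08 TPM, the F1 NHS library 4.31 TPM and F2 Con 1.97, 2.43 and 2.49 TPM. F2 NHS held 5.28, 13.6 and 6.998 TPM. The 3 F0 Con libraries were all above the 6 libraries of the F1 Con and F2 Con groups. All 3 F2 NHS libraries were above all 3 F2 Con libraries. Among all miRNAs, 25.6% were lower without overlap in F1 Con than in F0 Con and 21.1% in F2 Con, and 11.7% were higher in F2 NHS.

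miR-206-3p, which marks skeletal muscle and regenerating nerve-muscle contacts, stood at 465, 5.29 and 33.5 TPM in F0 Con. A single library thus held most of the F0 Con reads. F0 NHS held 4.65, 24.4 and 54.2 TPM, F1 Con 2.81, 7.82 and 18.2 TPM and the F1 NHS library 14.5 TPM. F2 Con held 2.05, 3.32 and 5.01 TPM, the lowest group mean, and F2 NHS 78.3, 5.03 and 61.6 TPM. The lowest F2 NHS library and the highest F2 Con library were level at this depth.

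The arm of miR-499 that took most reads differed between libraries. The share of miR-499-5p in its reads was 30.9%, 11.1% and 12.1% in F0 Con and 19.4%, 6.92% and 9.41% in F0 NHS. It was 93.3%, 87.7% and 18.3% in F1 Con, 86.3% in the F1 NHS library and 87.1%, 78.7% and 87.3% in F2 Con. In F2 NHS it was 27.7%, 71.7% and 9.02%. All 6 F0 libraries were below all 3 F2 Con libraries, while 1 F1 Con library lay within the F0 range and 2 lay above the F2 Con range. All 3 F2 NHS libraries were below the F2 Con range. miR-499-3p stood at 64.9, 25.4 and 77.9 TPM in F0 Con, 2.38, 11.9 and 20.8 TPM in F1 Con and 2.17, 8.30 and 11.4 TPM in F2 Con. It stood at 39.2, 75.8 and 25.9 TPM in F0 NHS, 4.18 TPM in the F1 NHS library and 57.6, 15.6 and 107 TPM in F2 NHS. miR-499-5p went the other way among the controls, with 29.01, 3.16 and 10.7 TPM in F0 Con, 33.2, 84.5 and 4.67 TPM in F1 Con and 14.7, 30.7 and 78.9 TPM in F2 Con. Both arms summed gave 70.3 ± 36.3 TPM in F0 Con, 52.5 ± 38.4 in F1 Con and 48.7 ± 37.7 in F2 Con (SD, n = 3 each), which overlapped.

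**Figure D3:**
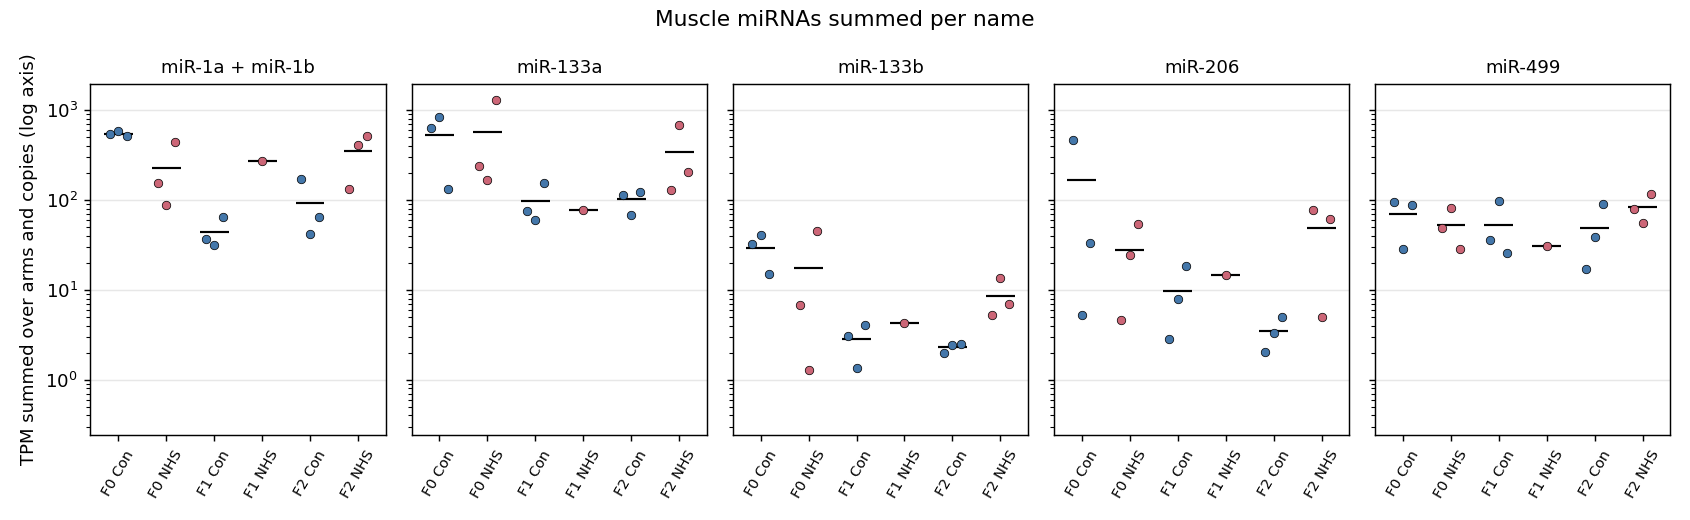
TPM summed over arms and copies of each name (vertical log axis) by group (horizontal axis); points are libraries (blue Con, red NHS) and lines are group means. The 3 F0 Con libraries of miR-1a and miR-1b lie together between 520 and 586 TPM, while the summed miR-499 has similar ranges in all Con groups.

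The first comparison asks what exposure of the F0 males to the gases did to these miRNAs. No member passed the test: edgeR's quasi-likelihood test called 0 of the 8 tested members, against 0% of the 735 miRNAs tested, with the Benjamini-Hochberg adjustment over all of them. All 8 members had a lower fitted level in F0 NHS, and their median log2 fold change was -1.23 against -0.09 over all miRNAs. miR-206-3p had the largest difference at -2.70 (SE 1.31, edgeR adjusted p = 0.728), and it was 0.48 without F0 Con replicate 1, the library that held 465 TPM. miR-1a-3p was at -2.09 (SE 1.56), miR-133b-3p at -1.28 (SE 0.89) and miR-133a-3p at -0.44 (SE 0.87). With library totals in place of TMM scaling miR-133a-3p stood at 0.10, so that 7 of 8 were lower. Without F0 Con replicate 2, miR-1a-3p stood at -1.06, miR-133b-3p at -0.63 and miR-133a-3p at 0.36. Without F0 NHS replicate 2, miR-133b-3p stood at -0.59 and miR-133a-3p at 0.10, and without F0 NHS replicate 3 they stood at -3.003 and -1.57. The TPM of the 2 F0 groups overlapped for all 8 members, while 4.76% of all miRNAs were lower and 8.03% were higher without overlap. At an unadjusted p under 0.05 there were 0 members and 45 of all miRNAs, and DESeq2 called 0 members and 0.138% of its miRNAs. In bulk RNA, fewer cells of a type and less RNA per cell cannot be told apart.

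For the F1 sons only 1 NHS library was available, whose spread was taken from the other groups. edgeR called 0 of 8 members, against 0% of all miRNAs, and the smallest adjusted p among members was 0.731. No member had an unadjusted p under 0.05, and DESeq2 called 0 members and 1.07% of its miRNAs. There were 3 members higher and 5 lower, and with library totals 5 were higher and 3 lower. The sum of miR-1a and miR-1b, at 274 TPM, was above all F1 Con libraries, with a log2 fold change of 2.14 (SE 0.76, edgeR adjusted p = 0.357).

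In the F2 generation, whose males were not exposed, 7 of the 8 members were higher in NHS, and the members' median log2 difference was 1.93 against 0.15 over all miRNAs. None passed edgeR's test, against 0% of all miRNAs called. At an unadjusted p under 0.05 there were 2 members, against 82 of all 735 miRNAs. miR-499-3p was at 2.83 (SE 0.91, edgeR adjusted p = 0.282) and miR-206-3p at 3.69 (SE 1.37, edgeR adjusted p = 0.317). miR-1a-3p was at 2.22 (SE 1.56), miR-133b-3p at 1.64 (SE 0.90) and miR-133a-3p at 1.47 (SE 0.89). miR-499-5p was the exception at -0.96 (SE 1.01), and summed with its partner arm miR-499 was at 0.58 (SE 0.72). DESeq2 called miR-499-3p (2.67, SE 0.83, DESeq2 adjusted p = 0.0409) and no other member, against 3.85% of all miRNAs. With ids summed and miR-1a merged with miR-1b, DESeq2 called miR-206 (3.58, SE 1.07, DESeq2 adjusted p = 0.0214). edgeR on the same sums did not (3.63, SE 1.30, edgeR adjusted p = 0.171). The share of all names that DESeq2 called on these sums was not computed. With the DESeq2 size factors in edgeR 6 of 8 were higher, and miR-1b-3p was then lower as well. Without F2 NHS replicate 2, miR-1a-3p stood at 0.96 and miR-133a-3p at 0.56, and without F2 Con replicate 3 miR-499-5p stood at -0.24 and without F2 NHS replicate 3 at -0.59. The 2 groups did not overlap in TPM for 4 members, miR-133a-3p, miR-133b-3p, miR-206-3p and miR-499-3p, all higher in NHS, against 11.7% of all miRNAs. For miR-206-3p that gap was between 5.03 and 5.01 TPM.

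Over the 3 generations the mean NHS effect was called for 0 of 8 members by edgeR, against 0% of all miRNAs, with 0 members at an unadjusted p under 0.05, and for 0 by DESeq2, against 1.65%. With TMM scaling all 8 members lay below their controls in F0 and 7 of 8 lay above in F2, with the exceptions under other scalings given above. Whether the NHS effect differed by generation was tested. It was called for 0 members by edgeR, against 0% of all miRNAs. miR-206-3p (unadjusted p = 0.0143) and miR-499-3p (0.0184) had the smallest p, with an edgeR adjusted p of 0.395 each. DESeq2 called 0 members there, against 1.51% of its miRNAs. The F0 and F2 comparisons do not share control libraries.

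**Figure D4:**
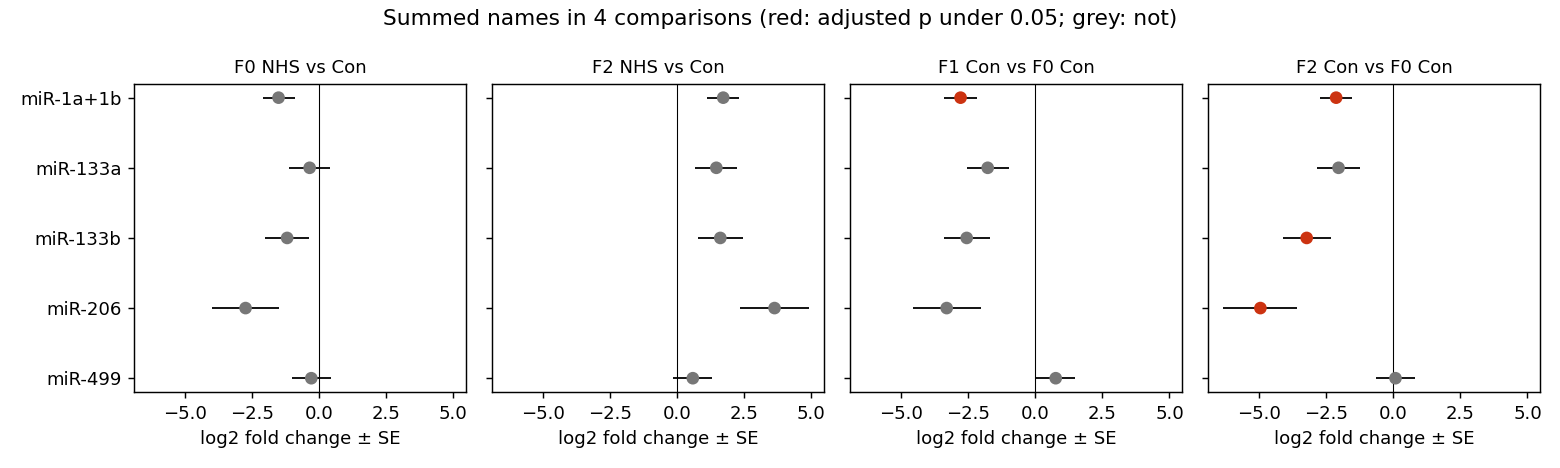
Log2 fold change ± SE (horizontal axis) of the summed names (vertical axis) in 4 comparisons, from edgeR with arms summed and miR-1a merged with miR-1b; red marks an adjusted p under 0.05. The red points are miR-1a and miR-1b at -2.78 in F1 Con against F0 Con, and the sum of miR-1a and miR-1b at -2.13, miR-133b at -3.23 and miR-206 at -4.95 in F2 Con against F0 Con.

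The control groups were also compared between generations. Once ids were summed, edgeR with TMM scaling called miR-133b and miR-206 in F2 Con only. It called miR-1 in F1 Con and F2 Con when miR-1a and miR-1b were merged. These calls depended on single libraries. With that merging, miR-133b and miR-206 stood at -2.56 and -3.30 in F1 Con (edgeR adjusted p = 0.0638 and 0.0901). DESeq2 called both there (DESeq2 adjusted p = 0.0153 and 0.0186), as did edgeR with library totals or no filter. Library totals called 22.6% of all names there, and the shares for DESeq2 and no filter on these sums were not computed. limma called miR-133b but not miR-206 (limma adjusted p = 0.0184 and 0.208). So did edgeR with only the compared groups (adjusted p = 0.0334 and 0.0988). With the DESeq2 size factors edgeR called neither miR-133b nor miR-206 (adjusted p = 0.0693 and 0.0981). Against F0 Con, 7 of 8 members were lower in F1 Con (median log2 fold change -2.61, against -0.05 over all miRNAs) and 7 of 8 in F2 Con (-2.60, against -0.21). Both comparisons share the F0 Con libraries. With ids tested singly edgeR called 0 members in F1 Con against F0 Con, against 0% of all miRNAs, and 0 in F2 Con against F0 Con, against 0.272%. At an unadjusted p under 0.05 there were 4 members in each, against 135 of all 735 miRNAs in F1 Con and 140 in F2 Con. In F1 Con, miR-133b-3p was at -2.67 (SE 0.93, edgeR adjusted p = 0.189) and miR-206-3p at -3.24 (SE 1.34), which moved to -0.12 without F0 Con replicate 1. In F2 Con, miR-133b-3p was at -3.43 (SE 0.96, edgeR adjusted p = 0.101), miR-206-3p at -5.02 (SE 1.46, adjusted p = 0.109) and miR-499-3p at -2.47 (SE 0.89). The value of miR-206-3p was -1.85 without F0 Con replicate 1. miR-499-5p was higher in both, at 2.63 (SE 1.06, edgeR adjusted p = 0.244) in F1 Con and 2.02 (SE 1.04) in F2 Con. The groups did not overlap for 3 members lower in F1 Con (miR-133b-3p, miR-1b-3p and miR-499-3p), against 25.6% of all miRNAs. They did not overlap for 4 members lower in F2 Con (miR-133a-3p, miR-133b-3p, miR-206-3p and miR-499-3p), against 21.1%, and for miR-206-3p the gap was between 5.01 and 5.29 TPM. F2 Con against F1 Con gave 0 calls among members by edgeR, against 0% of all miRNAs. There were 0 members at an unadjusted p under 0.05, against 66 of all 735 miRNAs. DESeq2 called 0 members, against 2.34%.

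DESeq2 called miR-133b-3p in F1 Con against F0 Con (DESeq2 adjusted p = 0.0497), against 7.98% of its miRNAs. In F2 Con against F0 Con it called miR-133b-3p, miR-206-3p and miR-499-3p, against 12% of its miRNAs. Summing the arms of every name raised the share of called names. In F1 Con against F0 Con edgeR called 0 of the 6 names and 11.9% of all 461 names. In F2 Con against F0 Con it called miR-133b and miR-206, each with an edgeR adjusted p of 0.0409, against 9.98% of all names.

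With miR-1a and miR-1b also merged, a choice made after the values were seen, the merged name was the 1 of 5 names called in F1 Con, where it fell by 2.78 on the log2 scale (SE 0.62, edgeR adjusted p = 0.0194), against 9.57% of all names. The adjusted p ran from 0.0134 to 0.0678 when single libraries were left out. It was 0.0574 without F0 Con replicate 2 and 0.0521, 0.0527 and 0.0678 without F1 Con replicates 1, 2 and 3. In F2 Con, 3 of the 5 names fell, against 11.1% of all names: the merged name was at -2.13 (SE 0.61), miR-133b at -3.23 (SE 0.89) and miR-206 at -4.95 (SE 1.38). The edgeR adjusted p was 0.0404 for each. Leaving out single libraries ended the calls on the merged name in 7 of 16 cases, on miR-133b in 7 and on miR-206 in 5. All 3 calls ended without F2 Con replicate 1, 2 or 3, without F0 Con replicate 1 and without F0 NHS replicate 1. The calls on the merged name and on miR-133b ended without F0 Con replicates 2 and 3 as well. The value of miR-206 moved from -4.95 to -1.79 without F0 Con replicate 1. Its call also ended with limma on log2(CPM + 1) (limma adjusted p = 0.1) and with only the 2 compared groups in edgeR (adjusted p = 0.0561). The summed miR-133a was at -1.77 (SE 0.79) and -2.04 (SE 0.79), and miR-499 at 0.76 (SE 0.72) and 0.08 (SE 0.72), none called by edgeR. DESeq2 on the same sums called miR-133a in F2 Con (-2.02, SE 0.79, DESeq2 adjusted p = 0.0472). The share of all names that DESeq2 called on these sums was not computed. With library totals in place of TMM scaling miR-499 stood at -0.42 and -0.53.

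Of 7 lists of markers of other cell types, 3 had sums that did not overlap between F0 Con and either later control group. Of all miRNAs, 25.6% and 21.1% were lower without overlap in F1 Con and F2 Con, and 2.86% and 6.67% higher. A sum mostly follows its most counted markers. By median over the 16 libraries, miR-143-3p had 28958 TPM, against 3366 for the next of its list, miR-199a-3p. miR-34b-3p and miR-34c-3p had 6113 and 4175 TPM, against 582 for the next germ cell marker, miR-871-3p. The summed smooth muscle and stroma miRNAs (4 of 4 found) ran from 66080 to 163452 TPM in F0 Con, 8626 to 16559 in F1 Con and 12121 to 33760 in F2 Con. The epithelium and epididymis miRNAs (5 of 5 found) ran from 15529 to 25460 TPM in F0 Con, 3360 to 10991 in F1 Con, 3973 to 6292 in F2 Con and 9582 to 18684 in F2 NHS. Male germ cell miRNAs (10 of 10 found) took the opposite course, from 4491 to 8780 TPM in F0 Con to 13734 to 22551 in F1 Con and 20618 to 23385 in F2 Con, with 9870 to 14952 in F2 NHS. In F0 NHS the 3 lists ran from 53047 to 117217, 9802 to 21152 and 7406 to 19017 TPM in the same order, and each overlapped F0 Con. The other 4 lists did not separate F0 Con from both later control groups. Leukocyte miRNAs (4 of 4 found) ran from 249 to 1831 TPM in F0 Con, 393 to 469 in F1 Con and 176 to 2283 in F2 Con. Red blood cell miRNAs (4 of 4 found) ran from 10152 to 77354, 15580 to 34278 and 4330 to 11541 TPM. Endothelial miRNAs (2 of 2 found) ran from 1817 to 4124, 162 to 1853 and 1191 to 2429 TPM. The liver miRNA miR-122-5p ran from 13.04 to 20.01, 5.63 to 42.1 and 0.836 to 3.87 TPM, lower in F2 Con without overlap. No marker of these lists was at 0 in all libraries. The part of these cell types in the differences was not tested.

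The libraries also fell into 2 sets by the predicted locus novel_mir1, with 6 libraries above 1000 TPM and 10 below. All F1 Con libraries were in the low set and the F1 NHS library in the high set, so set and exposure cannot be told apart in F1. Within the low set the merged miR-1a and miR-1b stood at 520 and 538 TPM in F0 Con, at 89.2 and 154.8 in F0 NHS, at 64.2 in the single F2 Con library and at 411 and 518 in F2 NHS. In the high set the single F0 Con library held 586 TPM, the F0 NHS library 444, the 2 F2 Con libraries 41.4 and 170 and the F2 NHS library 131. F0 NHS was the lower group within both sets, though edgeR with a term for the set did not call the difference (adjusted p = 0.301). F2 NHS lay above F2 Con in the low set and between its libraries in the high set. A set term in the model left the calls on the sums in place. The edgeR adjusted p was 0.0225 in F1 Con for the merged name. In F2 Con it was 0.0329 for the merged name, 0.0188 for miR-133b and 0.0399 for miR-206. Apart from left-out libraries, settings that ended calls did so in F2 Con only. They were the replicate block for the merged name, miR-133b and miR-206, and limma and only the compared groups for miR-206.

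Across the 16 libraries miR-133a and miR-133b varied together in log2(TPM + 1) (Pearson r = 0.87, Spearman rho = 0.77). The permutation p was 4e-05 for r and 0.00096 for rho, and 0.0004 and 0.00423 after adjustment over 10 pairs of names. Here and below the permutations shuffled all 16 libraries without regard to group. Differences in level between groups therefore enter these p-values. Without the 2 libraries farthest from the median of miR-133a r was 0.76, and it was 0.76 within the 10 libraries of the low set and 0.96 within the 6 of the high set. The merged miR-1a and miR-1b varied with miR-133b at r = 0.81 (rho = 0.82, permutation p = 0.00016 and 0.00019, adjusted 0.0008 and 0.0019), with r = 0.80 without 2 libraries and 0.86 and 0.79 within the sets. With miR-133a the merged name had r = 0.72 (rho = 0.74, permutation p = 0.00163 and 0.00127, adjusted 0.00543 and 0.00423), with 0.64 without 2 libraries and 0.75 and 0.77 within the sets. With each group centred on its mean these were 0.86, 0.65 and 0.66, with no p computed. Centred values here and below leave out the single F1 NHS library. miR-206, though encoded beside miR-133b, had r = 0.46 with it (rho = 0.47, permutation p = 0.0698 for each, adjusted 0.116 and 0.14) and 0.03 with groups centred. miR-499 had r = -0.09 with miR-133a and -0.06 with miR-133b (rho = -0.07 and -0.04, permutation p = 0.749 and 0.823 for r, 0.882 after adjustment for each). With groups centred these were -0.54 and -0.55, for which no p was computed. Names in 1 library share its depth and its mix of cells, and reads of miR-133a and miR-133b may be split by the counting.

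**Figure D5:**
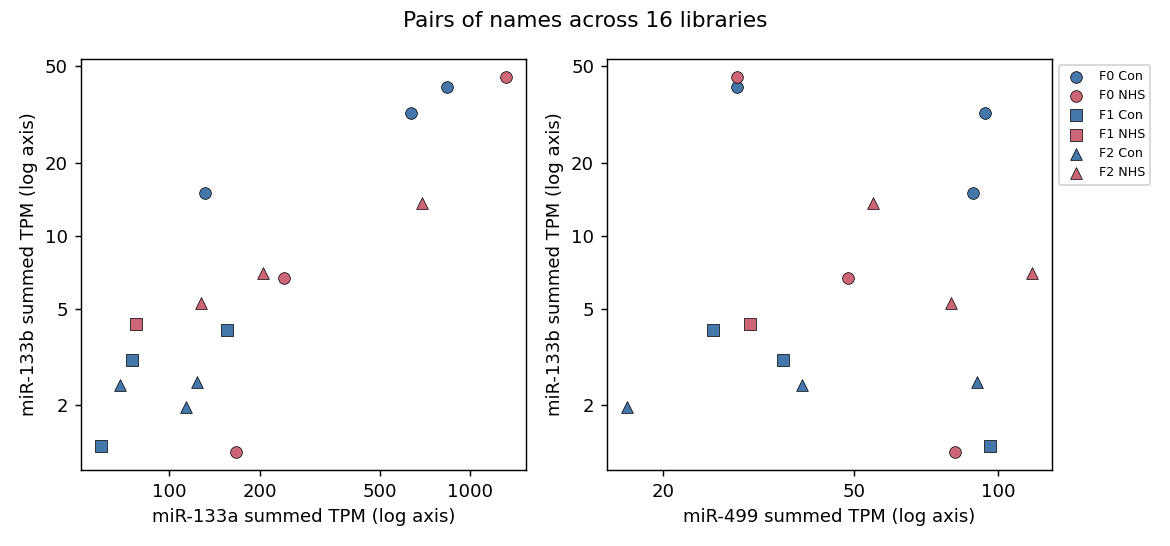
Summed TPM of miR-133b (vertical log axis) against miR-133a (left) and miR-499 (right; horizontal log axes) in the 16 libraries; circles are F0, squares F1 and triangles F2, blue Con and red NHS. Libraries rich in miR-133a are rich in miR-133b (r = 0.87), while r against miR-499 is -0.06 over all libraries. It is -0.55 with each group centred on its mean and the F1 NHS library left out.

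Among the 727 tested miRNAs that are not members, those whose log2(TPM + 1) most resembled the sum over all members across the 16 libraries were miR-148a-3p (Pearson r = 0.92), miR-29c-3p (0.92) and miR-29b-2-5p (0.91). The most alike of miR-133a-3p were miR-145a-3p (0.90), the passenger arm of a smooth muscle miRNA, miR-152-5p (0.86) and miR-148a-3p (0.86). miR-133b-3p was closest to miR-29c-3p (0.90), miR-365-3p (0.90) and miR-210-3p (0.89). miR-206-3p had weaker likenesses, with miR-19b-1-5p (0.75), miR-363-3p (0.74) and miR-1843b-5p (0.69). miR-1a-3p was closest to miR-22-5p (0.78), miR-96-3p (0.76) and miR-16-2-3p (0.73), and miR-1b-3p to miR-99a-5p (0.82), miR-183-5p (0.77) and miR-33-3p (0.76). miR-1b-5p was closest to miR-203-5p (0.71), miR-135b-5p (0.71) and miR-466n-3p (0.68). miR-499-3p was closest to miR-203-3p (0.76), miR-195a-3p (0.75) and miR-182-5p (0.75), and miR-499-5p to miR-99b-3p (0.66), miR-468-5p (0.62) and miR-703 (0.56). The 3 ids of miR-1 and the 2 arms of miR-499 thus had no closest miRNA in common. These values are descriptions over libraries that share depth and mix of cells.

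A list of other miRNAs linked to muscle held 46 ids, of which 39 passed the filter, and edgeR called 0 in each of the 8 comparisons. In F0, 16 were higher and 23 lower in NHS (median -0.11), and in F2, 23 were higher and 16 lower (median 0.32). Against F0 Con, 27 of 39 were lower in F1 Con (median -0.90) and 28 of 39 in F2 Con (median -0.84). The members' medians of -2.61 and -2.60 lay below these. The most counted ids of the list were miR-26a-5p at a mean of 9029 TPM over the 16 libraries, miR-26a-1-3p at 5306 and miR-23a-3p at 4185. At the other end, named after the values were seen, were the heart miRNA miR-208a and its slow-fibre relative miR-208b, which like miR-499 lie in myosin genes. miR-208a-3p reached at most 0.376 TPM and miR-208b-3p at most 0.471 TPM in any library, and both were at 0 in some.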

How the data were processed

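The authors deposited 1 table with, per library, whole-number read counts and TPM values of each small RNA. Per the file headers the deposited TPM is a normalized value, and in the 13 libraries whose lists are complete it equals the count divided by the library total, times 1000000, with no length term. The submitters' processing notes name mm10, and the aligner, the counter and its use of strand stand as not given in the sources used here. Where a list stops early, the total was taken as count over TPM in entries with at least 1000 reads. Counts of the 16 libraries with complete lists of known miRNAs were fitted with edgeR 4.0.16 (TMM, quasi-likelihood F test, two-sided, group means in 1 model), for miRNAs at 1 TPM or more in at least 3 libraries, with Benjamini-Hochberg adjustment over all 735 and a threshold of 0.05. DESeq2 1.42.0 and limma 3.58.1 were alternatives under R 4.3.3, and correlations used 100000 permutations in Python 3.11.15 (numpy 2.4.6, scipy 1.17.1). The fit was tested on simulated data. Further alternatives changed the scaling, the filter, the libraries and the summing of arms. Named members were all ids matching the rule; for likeness the 3 non-members of highest r were named, and of the other muscle-linked list the 3 of highest mean TPM and any called. The members and lists were chosen with earlier results of these data known. Tables of predicted miRNAs and piRNAs were not used here.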

Additional observations from a re-analysis of the deposited data

How the results depend on the processing

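The number of members called was 0 with ids tested singly in all 8 comparisons, and stayed 0 when each library was left out. It became 1 with DESeq2 in F2 NHS against Con, where DESeq2 on the merged sums also called miR-206 (DESeq2 adjusted p = 0.0214). In F1 Con against F0 Con it became 1 with DESeq2, 1 with arms summed and miR-1a merged with miR-1b, and 3 when library totals were used as well. The last of these settings called 22.6% of all names there. In F2 Con against F0 Con it became 3 with DESeq2, 2 with no filter on low counts, 2 with arms summed, 3 with miR-1a and miR-1b merged too and 3 with library totals in addition. Merged sums with library totals called 11.5% of all names there. DESeq2 on the merged sums called miR-133a there (DESeq2 adjusted p = 0.0472), which edgeR did not. The merging and the set term were chosen after seeing the data. Signs changed as follows. For miR-133a-3p in F0 the value was 0.10 with library totals, and 0.0987 with the merged sums and library totals, and the summed miR-133a gave 0.0987. miR-499-5p in F2 became 0.50, 0.58 and 0.79 under the 3 summings, which add its other arm. With merged sums and library totals it was -0.42 (F1 Con) and -0.53 (F2 Con). The summed miR-499 had the same values with library totals, -0.47 and -0.65 with limma, and -0.18 in F2 Con with no filter. Leaving out single libraries gave -1.57 to 0.36 for miR-133a-3p and -3.36 to 0.48 for miR-206-3p in F0. On the sums it gave -1.50 to 0.52 for miR-133a, -3.52 to 0.41 for miR-206 and -0.81 to 0.0028 for miR-499 in F0, and for miR-499 -0.0752 to 1.19 in F1 Con and -0.49 to 0.57 in F2 Con. The calls on the sums in F2 Con were lost with the replicate block, with an adjusted p of 0.0524 for the merged name, 0.0524 for miR-133b and 0.0863 for miR-206. The block changed no count of members called with ids tested singly. The call on miR-206 was also lost with limma (0.1) and with only the groups compared (0.0561). Apart from the summings, the cause was not tested. Same-numbered libraries had a mean correlation of 0.0157 and 7 of 30 pairs were above 0.1, so the numbers do not pair the samples. Library totals in place of TMM moved the median of all miRNAs by -0.83 in F1 Con and -0.33 in F2 Con against F0 Con, by 0.18 in F0 NHS and 0.18 in F2 NHS. Depth limits the 5 untested passenger arms, none of which passed 0.694 TPM.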
